A study of Mus musculus with 22 samples.

Results

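The 9 genes described here hold or deliver the fuel and oxygen of a muscle cell, or set how much of that machinery the cell makes: Mb, Slc2a4, Fabp3, Lpl, Cd36, Ckb, Ppargc1a, Ppara and Esrra. They were chosen by name from the 34378 gene names of the authors' deposited table, and 15 probes read them on the arrays. All 9 were among the 18062 genes tested, those with a probe that stood well above background in both replicates of some group. The arrays profiled mouse cardiac fibroblasts (CF) of strain CD1 and genotype aMHC-GFP, a reporter in which the promoter of the heart's alpha myosin heavy chain drives green fluorescent protein. The 11 groups of 2 arrays each were cells given a retrovirus that carries Mef2c, Gata4 and Tbx5 as 1 polycistronic transgene (MGT), collected on days 3, 5, 7, 10 and 14, cells given a control retrovirus with lacZ on the same days, and untransduced cells at day 0. Every group shared the strain and the reporter. The retrovirus enters some cells of a culture and not others, and the labels name no sort before RNA was taken, so each array reads a mixed culture. In such bulk RNA, fewer cells of a type and less RNA per cell cannot be told apart. Nothing in the labels says whether the 2 arrays of a group came from separate cultures, so each p-value measures the spread between these arrays, which may be technical.

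Muscle draws most of its energy from fatty acids and glucose burnt in mitochondria. Lipoprotein lipase (Lpl) frees fatty acids from circulating triglyceride, CD36 helps them across the cell membrane, and the heart-type binding protein Fabp3 carries them through the cytosol. The transporter GLUT4, made from Slc2a4, lets glucose in when insulin calls it to the surface. Myoglobin (Mb) stores oxygen and speeds its diffusion, and creatine kinase B (Ckb) moves phosphate between creatine and ADP to buffer ATP. The coactivator PGC-1alpha (Ppargc1a) and the nuclear receptors PPARalpha (Ppara) and ERRalpha (Esrra) switch on many of the genes for fatty acid burning and mitochondria in the adult heart.

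Levels are given as log2 of the processed spot signal minus the 75th percentile of its array, so that 0 is a spot at that percentile and 1 unit is a doubling; levels of different genes come from different probes and are not set against each other. Differences were tested with limma over all genes, and a gene was called at a Benjamini-Hochberg adjusted p under 0.05. The 75th percentile of the raw signal was 1285 to 2124 on 21 arrays and 729 on the second lacZ array of day 14, which also had the lowest share of spots well above background, 48.4% against 50.1% to 71.0% elsewhere. The arrays lay on 4 slides: both viruses shared a slide on days 3 and 5, and another on days 7 and 10, while day-14 MGT had a slide of its own and day-14 lacZ lay with day 0. At day 14, slide and virus therefore cannot be told apart. Mef2c, part of the MGT transgene, read -0.06 to 2.95 on the MGT arrays, against -4.13 to -1.74 on the lacZ arrays and -3.79 and -3.55 at day 0. The MGT and lacZ arrays do not overlap in Mef2c. Markers of heart muscle and of fibroblasts moved with the virus too, and their part in the members' values was not tested. All 9 cardiomyocyte markers were higher under MGT in the mean over days 3 to 14, and 9 of 10 fibroblast markers were lower, with Thy1 higher.

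The start regions of the members higher under MGT in that mean show what lies upstream of them, and 4 of those 5 are in the table of RefSeq promoters on build GRCm38.p6. Each stretch runs from 250 bases before the start to 50 bases after it, written 5′ to 3′ on the gene's own strand. Capitals mark a match to the nuclear receptor half-site AGGTCA on either strand (Mb, where it appears as its reverse complement TGACCT) or to the MEF2 motif (Ckb). Mb is at chr15:77022738-77023037, Fabp3 at chr4:130308488-130308787, Ppargc1a at chr5:51567676-51567975 and Ckb at chr12:111672289-111672588, with Fabp3 on the plus strand and the others on the minus strand.
Mb: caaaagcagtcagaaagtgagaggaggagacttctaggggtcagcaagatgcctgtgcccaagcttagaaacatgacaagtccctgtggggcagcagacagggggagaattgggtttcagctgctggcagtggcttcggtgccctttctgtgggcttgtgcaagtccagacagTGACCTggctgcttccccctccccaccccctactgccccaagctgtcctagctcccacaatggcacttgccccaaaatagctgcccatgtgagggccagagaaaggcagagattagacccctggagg
Fabp3: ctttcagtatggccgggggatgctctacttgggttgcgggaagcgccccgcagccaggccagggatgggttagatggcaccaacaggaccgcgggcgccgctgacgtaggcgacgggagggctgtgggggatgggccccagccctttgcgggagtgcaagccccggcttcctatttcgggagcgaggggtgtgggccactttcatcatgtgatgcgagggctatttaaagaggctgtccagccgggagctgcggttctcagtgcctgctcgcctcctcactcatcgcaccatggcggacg
Ppargc1a: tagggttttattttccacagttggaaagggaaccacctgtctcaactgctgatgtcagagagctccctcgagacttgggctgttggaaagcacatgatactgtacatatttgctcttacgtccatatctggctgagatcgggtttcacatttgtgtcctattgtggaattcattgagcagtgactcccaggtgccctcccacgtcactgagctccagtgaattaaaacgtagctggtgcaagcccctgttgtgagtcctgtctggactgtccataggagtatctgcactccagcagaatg
Ckb: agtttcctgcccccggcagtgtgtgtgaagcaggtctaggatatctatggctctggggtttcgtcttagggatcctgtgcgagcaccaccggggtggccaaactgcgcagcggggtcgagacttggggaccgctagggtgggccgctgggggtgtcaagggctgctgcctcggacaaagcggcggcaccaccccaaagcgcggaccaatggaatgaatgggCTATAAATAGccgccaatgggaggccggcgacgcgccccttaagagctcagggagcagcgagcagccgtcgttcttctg
The Ckb window holds the MEF2 motif from -29 to -20 relative to the start, a stretch that also spells TATAAA, and 3.19% of 32851 mouse promoters of the same length hold that motif. The Mb half-site lies from -77 to -72; AGGTCA occurs on either strand in 16.3% of all promoters, and among the members' 9 windows (3 of them for Mb starts) also in Cd36, from -228 to -223, and in a second Mb window that overlaps the one shown. The E-box CANNTG, which 72.3% of all promoters hold, was found in 8 of the 9 windows, with 6 copies in the Ppargc1a window shown. The ERR element TNAAGGTCA (1.28% of all promoters), the PPAR direct repeat, 2 copies of AGGTCA with 1 base between them (0.0396%), the GATA motif GATAA (25.4%) and the T-box motif AGGTGTNA (3.03%) were in none of the 9. Both strands were searched; the half-site is part of the ERR element and of the direct repeat. A match is a stretch of letters, and these data hold no binding.

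Over days 3 to 14 together, 5 of the 9 genes were higher with MGT than with lacZ, namely Mb, Slc2a4, Fabp3, Ppargc1a and Ckb, and 4 were lower, namely Cd36, Lpl, Ppara and Esrra. All 9 therefore passed, in a comparison where 63.9% of all genes tested were called, 23.2% as higher and 40.7% as lower. Mb differed most of the 9, with a mean difference of 7.83 ± 0.16 (log2, SE), and Esrra least, with -0.10 ± 0.03. Day by day, 6 were called on day 3, where 30.4% of all genes were, 7 on day 5 (38.1% of all genes), 6 on day 7 (37.3%), 6 on day 10 (39.3%) and 9 on day 14 (47.6%). With only the arrays of day 14 in the fit, 5 were called there. Between days 3 and 14 the difference itself changed for 6 of the 9 genes, where it did for 27.6% of all genes. Mb (6.82 ± 0.52), Ppargc1a (4.02 ± 0.29), Slc2a4 (2.12 ± 0.17) and Lpl (0.77 ± 0.18) moved upwards, and Cd36 (-1.38 ± 0.29) and Ckb (-0.81 ± 0.10) downwards; for Mb and Ppargc1a neither day-14 lacZ array was well above background, so their values there are no exact sizes. The call of Ppara as lower rests on its brightest probe alone, as given below. When each array was scaled to its probes above background on every array, 49.2% of the called genes were higher, against 36.4% in the main scaling, and the median difference of all genes was -0.01 in place of -0.09. Under that scaling Ppara and Esrra were no longer called in the mean over the days (adjusted p = 0.11 and 0.43).

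**Figure D1:**
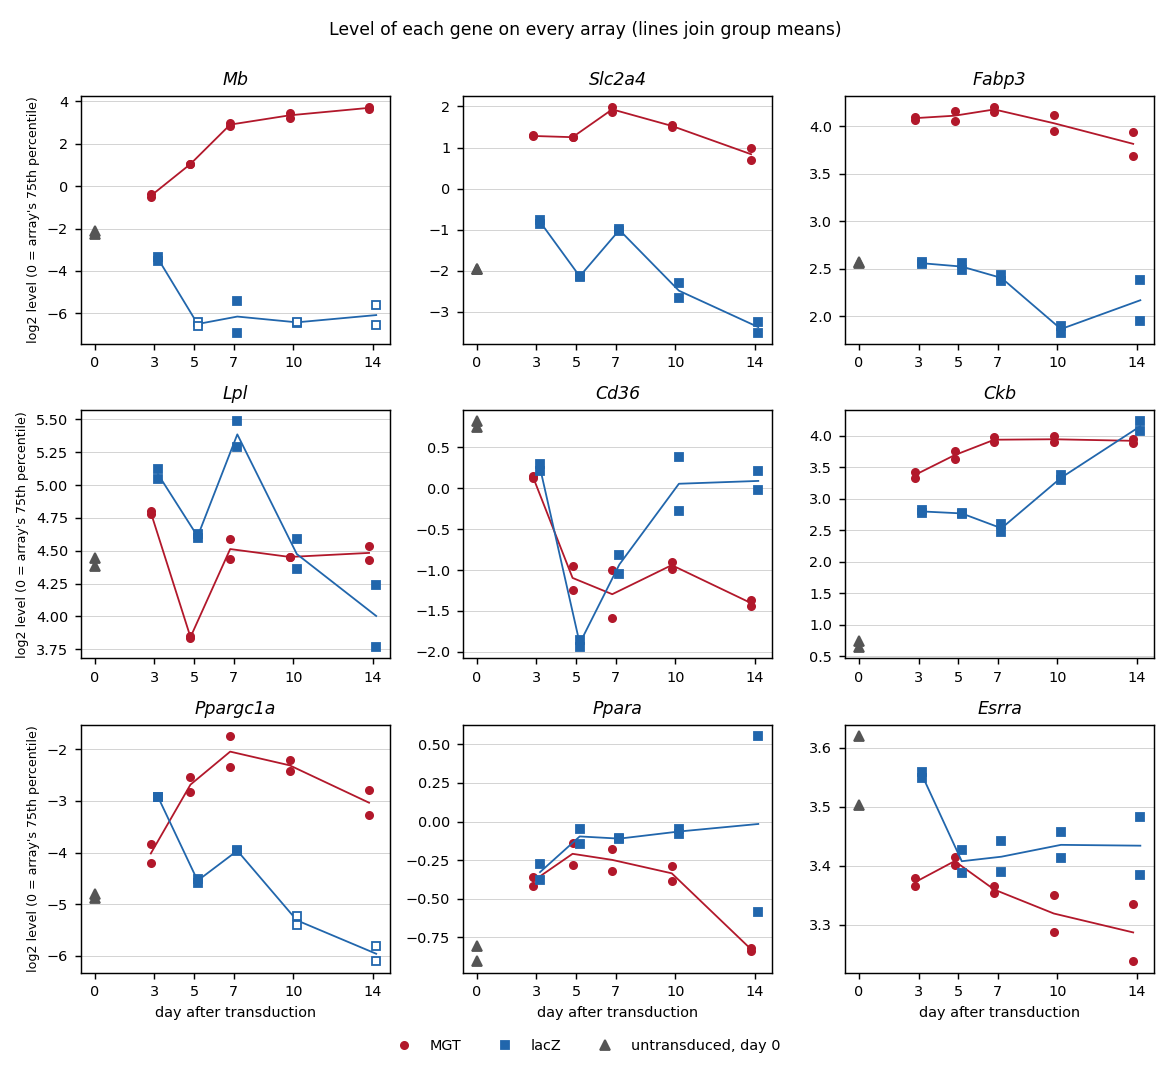
Log2 level of the 9 genes on each array (vertical axes; 0 is the array's 75th percentile) by day after transduction (horizontal axes), for MGT (red circles), lacZ (blue squares) and untransduced cells at day 0 (grey triangles), with lines joining the means of 2 arrays and open symbols for groups in which neither array was well above background. Mb, Slc2a4 and Fabp3 sit above lacZ on all 10 MGT arrays, while the 2 courses cross for Lpl, Cd36, Ckb (in the brightest probe, shown here, but not in its other) and Ppargc1a.

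**Figure D2:**
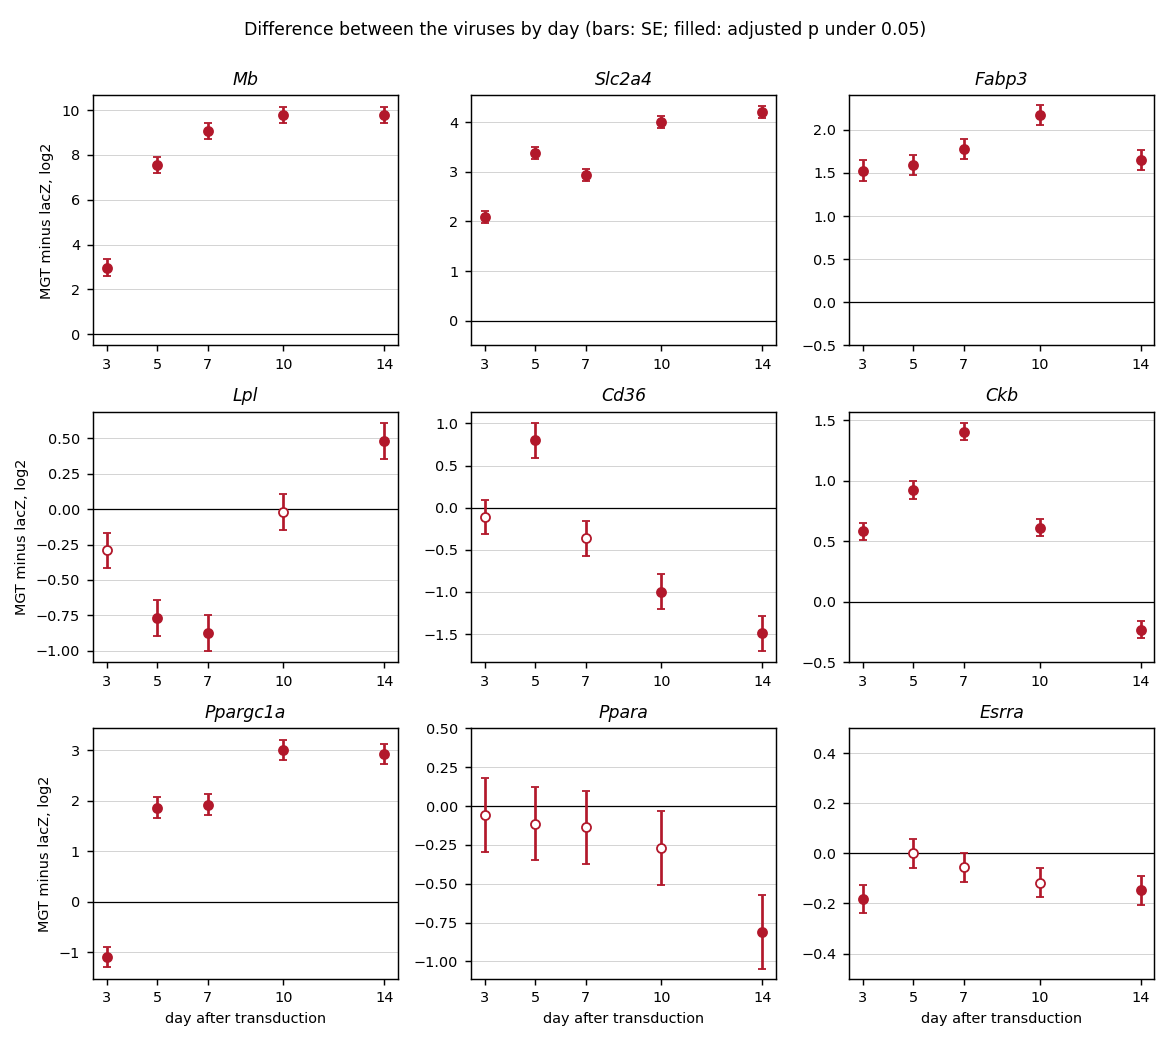
Difference MGT minus lacZ (vertical axes, log2 units, each panel with its own scale) on each day (horizontal axes); bars are standard errors and filled points have an adjusted p under 0.05. The Mb difference is 2.97 at day 3, and at day 14 it stands for at least 341-fold by a bound that applies to this scaling. The Mb points of days 5, 10 and 14 and the Ppargc1a points of days 10 and 14 rest on lacZ arrays not well above background. For Mb at day 7 and Ppargc1a at day 5, 1 of 2 lacZ arrays was well above background. The signs turn between days for Lpl, Cd36, Ckb (on its brightest probe only) and Ppargc1a.

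Myoglobin was the member that separated the viruses most. Its level under MGT was -0.38 and -0.53 on the arrays of day 3, 1.06 and 1.03 on day 5, 2.86 and 2.96 on day 7, 3.47 and 3.23 on day 10, and 3.73 and 3.66 on day 14. Under lacZ it was -3.52 and -3.32 on day 3, -6.41 and -6.61 on day 5, -6.92 and -5.40 on day 7, -6.47 and -6.40 on day 10, and -6.56 and -5.62 on day 14. Untransduced cells at day 0 read -2.10 and -2.26. Every MGT array lay above day 0 and every lacZ array below it, and each MGT group lay above that of the sampled day before it with no overlap. From day 5 on, only 1 of the 8 lacZ arrays, on day 7, was well above background. The order of the lacZ groups of days 5, 7, 10 and 14 cannot be read, since their arrays overlap.

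MGT minus lacZ for Mb was 2.97 ± 0.37 (log2, SE) at day 3, or 7.81-fold (limma adjusted p = 4.2e-05). From day 5 the lacZ level is mostly a bound. In this scaling Mb was at least 48.9-fold higher under MGT on day 5 (limma adjusted p = 3.4e-09). On day 10 it was at least 762-fold higher (2.5e-10), and on day 14 at least 341-fold (2.3e-10). Here and below, such a bound sets the mean of the brighter group against a floor on each array of the other group. The floor is the lowest signal of any probe that counted as above background, or the spot's own signal if higher. It is no strict limit. Under other settings the fitted difference was as low as 5.24, 7.525 and 8.05 on days 5, 10 and 14. On the day-10 lacZ arrays, Ppargc1a spots at -5.22 and -5.40 did not count as above background, though the lowest signals that did were -6.44 and -6.01. At day 7, with 1 of 2 lacZ arrays above background, the fitted difference was 9.07. Against day 0, Mb rose by 5.88 ± 0.37 in day-14 MGT cells (adjusted p = 8.1e-09), and it was at least 5.80-fold lower in day-14 lacZ cells (adjusted p = 5.7e-07). Already at day 3 lacZ cells were lower than day 0, by -1.24 ± 0.37 (adjusted p = 0.011), though this call was lost without the first day-0 array (0.057), without the first lacZ array (0.061) and under quantile normalization (0.056).

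The probe for Mb covers chr15:76846069-76846128 on mm9, the build of the array design. Over the 11 group means, the genes whose course was most like that of Mb, out of 15107 compared, were Rbm24, an RNA-binding protein that guides muscle splicing (Pearson r = 0.992), Tnni3, cardiac troponin I (0.991), and C5ar2, a receptor for complement fragments (0.990). These correlations describe 11 means that share arrays, slides and the split by virus, and no test was made of them. Of the other globin, haem and oxygen-sensing genes, 4 of 24 measured were higher under MGT and 12 lower in the mean over the days (23.2% and 40.7% of all genes). Their median difference was -0.14 against -0.09 over all genes. Cytoglobin (Cygb), the globin typical of fibroblasts, fell by 2.99 ± 0.06 on the log2 scale (level 0.69 with MGT and 3.68 with lacZ, means of 10 arrays). The oxygen sensor prolyl hydroxylase 3 (Egln3) rose by 2.48 ± 0.05, and HIF-2alpha (Epas1), the factor such enzymes mark for destruction, fell by 0.94 ± 0.04. Alas2, the erythroid enzyme that starts haem synthesis, differed by -0.80 ± 0.20 (adjusted p = 0.0036), with only 2 of 10 MGT and 3 of 10 lacZ arrays well above background.

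Slc2a4 was higher under MGT on every day. The MGT arrays read 1.29 and 1.27 on day 3, 1.25 and 1.26 on day 5, 1.98 and 1.88 on day 7, 1.56 and 1.49 on day 10, and 0.99 and 0.69 on day 14. The lacZ arrays read -0.85 and -0.76 on day 3, -2.15 and -2.12 on day 5, -0.98 and -1.03 on day 7, -2.30 and -2.66 on day 10, and -3.24 and -3.50 on day 14, against -1.95 on both arrays of day 0. All 10 MGT arrays lay above all others. The lacZ arrays of days 3 and 7 lay above day 0 and those of days 5, 10 and 14 below it, and days 3 and 5 shared a slide, as did days 7 and 10. The difference between the viruses was 2.09 ± 0.12 (SE) at day 3 (limma adjusted p = 3.2e-08) and 4.21 ± 0.12, or 18.5-fold, at day 14 (1.8e-11). Within a slide it was 3.39, 2.94 and 4.01 on days 5, 7 and 10. Against day 0, day-14 MGT cells were higher by 2.79 ± 0.12 (adjusted p = 1.9e-10) and day-14 lacZ cells lower by -1.41 ± 0.12 (1.9e-07), whereas day-3 lacZ cells were higher by 1.15 ± 0.12 (2.9e-06). The probe, averaged over 10 spots, covers chr11:69756073-69756132 on mm9.

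The genes most like Slc2a4 over the 11 group means were Fam135a (r = 0.986), Auts2, a regulator known from neurons (0.984), and Kcnj5, a subunit of the atrial acetylcholine-gated potassium channel (0.983). Of 29 measured genes of glucose entry and its insulin control, 13 were higher and 11 lower under MGT in the mean over the days (23.2% and 40.7% of all genes). Their median difference was 0.01. Sortilin (Sort1), which sorts GLUT4 into its storage vesicles, rose by 3.77 ± 0.04 (3.30 in MGT cells and -0.48 in lacZ cells, means of 10 arrays). Tbc1d4, the Rab regulator that holds these vesicles back until insulin acts, rose by 2.06 ± 0.13, and the insulin receptor (Insr) by 0.87 ± 0.07. The fructose carrier Slc2a5 rose by 1.13 ± 0.14, with 9 of 10 MGT and 4 of 10 lacZ arrays well above background.

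Fabp3 was higher under MGT on each day, by 1.53 to 2.17. Its level was 4.10 and 4.07 on the MGT arrays of day 3, 4.06 and 4.16 on day 5, 4.15 and 4.20 on day 7, 4.12 and 3.95 on day 10, and 3.94 and 3.69 on day 14. On the lacZ arrays it was 2.55 and 2.57 on day 3, 2.56 and 2.48 on day 5, 2.44 and 2.37 on day 7, 1.90 and 1.83 on day 10, and 1.95 and 2.38 on day 14, and day 0 read 2.56 and 2.57. In order of level, neighbours among the MGT groups of days 7, 5, 3 and 10 overlap, as do neighbours among day 0 and the lacZ groups of days 3 and 5, while no MGT array reaches any lacZ or day-0 array. On day 3 the difference was 1.53 ± 0.12 (SE, limma adjusted p = 5.3e-07), with 1.59, 1.77 and 2.17 on days 5, 7 and 10, and on day 14 it was 1.65 ± 0.12, or 3.13-fold (1.2e-07). From day 3 to day 14 it changed by 0.12 ± 0.17, which was not called (adjusted p = 0.64), though after normexp and quantile normalization it was 0.40 (0.022). Against day 0, Fabp3 rose by 1.25 ± 0.12 in day-14 MGT cells (5.1e-07) and differed by -0.40 ± 0.12 in day-14 lacZ cells (0.0087), a call that was lost without the first lacZ array of that day (-0.18, adjusted p = 0.12).

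The 2 Fabp3 probes overlap (chr4:129992643-129992702 and chr4:129992652-129992711 on mm9) and gave mean differences of 1.78 and 1.74. RefSeq lists a Fabp3 pseudogene, and whether the probes also bind its RNA was not tested. Als2cl (r = 0.990), the oxysterol receptor LXRalpha (Nr1h3, 0.990) and the M-band protein Myom2 (0.983) had the courses most like that of Fabp3. Across the same group means Fabp3 correlated with Slc2a4 at r = 0.953 and with Mb at 0.912.

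Lipoprotein lipase and CD36, the 2 entry points for fatty acids, differed less and changed sign between days. Lpl read 4.78 and 4.80 under MGT on day 3, 3.84 and 3.85 on day 5, 4.44 and 4.59 on day 7, 4.45 on both arrays of day 10, and 4.54 and 4.43 on day 14. Under lacZ it read 5.12 and 5.04 on day 3, 4.59 and 4.62 on day 5, 5.29 and 5.48 on day 7, 4.59 and 4.36 on day 10, and 4.24 and 3.77 on day 14, with 4.44 and 4.38 at day 0. Both viruses were lower on day 5 than on days 3 and 7, without overlap, and days 3 and 5 shared a slide. Lpl was lower under MGT at day 5 by -0.77 ± 0.12 (SE, limma adjusted p = 2.8e-04) and at day 7 by -0.87 ± 0.12 (9.2e-05). At day 3 the arrays did not overlap either, but the difference of -0.29 missed the threshold (0.10), which it passed from the other probe (-0.32, 0.040) and as the mean of both (-0.30, 0.037), and at day 10 it was -0.02 (0.91).

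At day 14 Lpl was higher under MGT by 0.48 ± 0.12 (adjusted p = 0.0066), a difference of 0.24 without the second lacZ array (0.070), which stands apart in its raw signal, and of 0.43 without the first MGT array (0.051). Day-14 MGT cells differed from day 0 by 0.07 ± 0.12 (0.62). In lacZ cells Lpl was higher than day 0 by 0.67 ± 0.12 at day 3 (4.6e-04), and at day 14 it differed by -0.41 ± 0.12 (0.011), or by -0.17 (0.15) without that second array and -0.38 (0.056) without the first day-0 array. A second Lpl probe, at chr8:71425050-71425109 on mm9 and some way upstream of the first at chr8:71430267-71430326, gave -0.32, -0.73, -0.81, -0.02 and 0.38 on the 5 days in turn. Among the courses most like that of Lpl were those of Efhb (r = 0.868) and Desi1 (0.866).

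Cd36 was highest in untransduced cells, at 0.82 and 0.75. The MGT arrays read 0.13 and 0.15 on day 3, -0.95 and -1.24 on day 5, -1.588 and -1.002 on day 7, -0.98 and -0.90 on day 10, and -1.44 and -1.37 on day 14. The lacZ arrays read 0.29 and 0.21 on day 3, -1.85 and -1.94 on day 5, -0.81 and -1.05 on day 7, -0.27 and 0.38 on day 10, and 0.21 and -0.03 on day 14. No transduced array reached day 0, the MGT groups of days 5 and 10 overlap, and the MGT arrays of day 14 lie between the 2 of day 7. Cd36 was higher under MGT at day 5 by 0.80 ± 0.20 (SE, limma adjusted p = 0.0071), and lower at day 10 by -0.99 ± 0.20 (0.0016, or 0.083 with only the arrays of that day in the fit) and at day 14 by -1.49 ± 0.20, or 0.355 of the lacZ level (5.4e-05). The day-5 call was lost without the first MGT array of that day (0.65, adjusted p = 0.073). Day 3 (-0.11, adjusted p = 0.77) and day 7 (-0.36, 0.19) were not called, though day 7 was -0.66 (0.036) without the second MGT array of that day. The mean over the days, -0.43 ± 0.09 (9.9e-04), was -0.17 (0.18) with days 3 to 10 alone and 0.35 (0.068) within the slide of days 3 and 5, so it rests on the later days. Against day 0, Cd36 differed by -2.19 ± 0.20 in day-14 MGT cells (4.6e-07) and by -0.69 ± 0.20 in day-14 lacZ cells (0.0084), a call lost without the second lacZ array of that day (-0.58, 0.062). The probe covers chr5:17288600-17288659 on mm9.

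Cd36 is also made by endothelial cells, macrophages and fat cells, and Lpl by macrophages and fat cells. Markers of all these cells were read on the same arrays. Of 10 endothelial markers, 8 were lower under MGT, and the other 2 were not called. Their levels summed on the linear scale ranged over 7.18 to 21.2 on the MGT arrays, 11.8 to 35.3 on the lacZ arrays and 32.3 to 34.2 at day 0 (1 being the array's 75th percentile). The 10 macrophage markers, all above background on every array, gave 0 calls with limma in that mean and 0 at an unadjusted p under 0.05. Their sum was 60.1 to 231 on MGT, 48.3 to 391 on lacZ and 42.8 to 45.5 on day-0 arrays. Of 8 fat cell markers, Adipoq, Plin1, Cidec and Cfd stood above background in no group as a whole, Fabp4 was lower under MGT (-0.85 ± 0.07), Pparg, the master regulator of fat cells, was higher (0.43 ± 0.03), and Lep (-0.09, adjusted p = 0.64) and Retn (0.21, 0.36) were not called. The part of these cells in the Cd36 and Lpl values was not tested. Csta3 (r = 0.909), the DNA-binding protein Arid3a (0.904) and Ighv8-8, an immunoglobulin segment (0.902), had the courses most like that of Cd36.

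Among 31 measured genes of fatty acid uptake, binding and lipolysis, 6 were higher and 13 lower under MGT in the mean over the days (23.2% and 40.7% of all genes). Their median was -0.11. The fatty acid transport protein Slc27a6 fell by 2.52 ± 0.11, and Fabp4, the binding protein of fat and endothelial cells, fell by 0.85 ± 0.07 (0.75 with MGT and 1.60 with lacZ). The lipoprotein receptor Vldlr rose by 1.07 ± 0.03. Endothelial lipase (Lipg) stood above background on 7 of 10 MGT arrays and on 0 of 10 with lacZ, a difference of at least 1.04-fold (adjusted p = 9.1e-05).

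Creatine kinase B was far higher in all transduced cells than at day 0, whichever virus they had received. Day 0 read 0.73 and 0.65. The MGT arrays read 3.42 and 3.33 on day 3, 3.63 and 3.75 on day 5, 3.89 and 3.97 on day 7, 3.99 and 3.89 on day 10, and 3.95 and 3.89 on day 14, and the lacZ arrays read 2.82 and 2.77, 2.76 and 2.77, 2.59 and 2.47, 3.29 and 3.37, and 4.07 and 4.22 on the same days. The MGT groups of days 7, 10 and 14 overlap, whereas lacZ reached its highest level on day 14, above every MGT array of this probe. On the other Ckb probe, day-14 lacZ read 2.74 and 2.43, below the 2.77 and 2.81 of day-14 MGT. Ckb rose over day 0 by 3.23 ± 0.07 (SE) in day-14 MGT cells, or 9.37-fold (limma adjusted p = 5.3e-13), by 3.46 ± 0.07 in day-14 lacZ cells (5.5e-13) and by 2.11 ± 0.07 in day-3 lacZ cells (1.2e-10). The difference between the viruses was 0.58 ± 0.07 on day 3 (5.1e-05), 0.93 on day 5, 1.41 ± 0.07 on day 7 (6.6e-09) and 0.61 on day 10 (1.9e-05).

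At day 14 Ckb differed by -0.23 ± 0.07 (0.020), a call that did not hold. It was -0.16 (0.14) without the second lacZ array and 0.07 (0.51) in the authors' deposited table, and the other Ckb probe gave 0.20 ± 0.11 (0.16). That probe gave 0.49, 0.90, 1.33 and 0.63 on days 3, 5, 7 and 10, close to the first. The first covers chr12:112907787-112907846 on mm9, while the second spans chr12:112908459-112909105, longer than its 60 bases and so across an intron. RefSeq lists Ckb pseudogenes, and binding to their RNA was not tested. Of 9 measured phosphagen and adenylate kinase genes, 1 was higher and 6 lower under MGT in the mean over the days (23.2% and 40.7% of all genes), with a median of -0.23. The muscle and mitochondrial creatine kinases Ckm and Ckmt2 stood above background in no group as a whole. The adenylate kinases Ak5 (-1.32 ± 0.03), Ak4 (-0.62 ± 0.06) and Ak1 (-0.45 ± 0.05) and Gatm, which starts creatine synthesis (-0.47 ± 0.19, adjusted p = 0.044), were lower. Against day 0, 8 of 9 were higher and 1 lower in day-14 MGT cells (median 0.83), where 33.1% of all genes were higher and 37.4% lower, and likewise 8 and 1 in day-14 lacZ cells (median 1.21; 35.5% and 33.4% of all genes), 2 comparisons that share the day-0 arrays. Serf1 (r = 0.966), the kisspeptin receptor Kiss1r (0.959) and Mfge8, a secreted protein that tags dying cells for uptake (0.959), had the courses most like that of Ckb.

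The coactivator Ppargc1a was lower under MGT at day 3 and higher from day 5 on. Its MGT arrays read -4.21 and -3.83 on day 3, -2.54 and -2.83 on day 5, -1.74 and -2.35 on day 7, -2.20 and -2.42 on day 10, and -2.79 and -3.28 on day 14. Its lacZ arrays read -2.92 on both arrays of day 3, -4.58 and -4.50 on day 5, -3.98 and -3.95 on day 7, -5.22 and -5.40 on day 10, and -5.81 and -6.10 on day 14, against -4.88 and -4.80 at day 0. In lacZ cells days 3, 5 and 7 lay above day 0, and days 10 and 14 below it, where none of the 4 arrays was well above background. On day 5, 1 of 2 lacZ arrays was well above background, so values that rest on that group are no exact sizes. MGT minus lacZ was -1.10 ± 0.20 (SE) at day 3 (limma adjusted p = 0.0011), 1.86 ± 0.20 at day 5 (8.6e-06) and 1.92 ± 0.20 at day 7 (6.2e-06). At day 10 the fitted difference was 2.999 (7.9e-08). It has no bound, since both lacZ spots, not above background, read higher than the lowest signals that did count (-6.44 and -6.01). At day 14 Ppargc1a was at least 3.21-fold higher (9.8e-08). Under other settings the fitted difference was as low as 1.47 at day 10 and 1.46 at day 14. The day-3 call was lost under quantile normalization (-1.10, adjusted p = 0.059), and that of day 5 as the mean of both probes (0.65, 0.053), of which the second was not above background that day.

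Day-14 MGT cells were above day 0 by 1.80 ± 0.20 (3.2e-06), and day-3 lacZ cells by 1.92 ± 0.20 (3.6e-06). A second probe, further along the transcript, was above background on 3 of 22 arrays, both of day-7 MGT and 1 of day-14 MGT, and so has a value to compare only at day 7, where it was at least 1.37-fold higher under MGT (adjusted p = 3.2e-04). The first covers chr5:51848928-51848987 and the second chr5:51846926-51846985 on mm9. Susd4 (r = 0.941), the cardiac potassium channel Kcnh2 (0.939) and the keratin Krt87 (0.928) had the courses most like that of Ppargc1a. Across the group means Ppargc1a correlated with Slc2a4 at 0.893 and with Mb at 0.795.

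The 3 Ppara probes did not agree on the direction. The brightest, at transcript base 2697 (chr15:85632534-85632593 on mm9), read -0.41 and -0.36 under MGT on day 3, -0.28 and -0.14 on day 5, -0.18 and -0.32 on day 7, -0.28 and -0.38 on day 10, and -0.82 and -0.84 on day 14. Under lacZ it read -0.28 and -0.38, -0.14 and -0.05, -0.11 on both arrays, -0.05 and -0.08, and -0.59 and 0.56 on the same days, and -0.90 and -0.80 at day 0. Its 2 arrays of day-14 lacZ are further apart than those of any other group of this probe. It was lower under MGT by -0.28 ± 0.11 (SE) in the mean over the days (limma adjusted p = 0.035) and by -0.81 ± 0.24 at day 14 (0.013), with days 3 to 10 not called (adjusted p of 0.40 to 0.91). The call in the mean was lost on leaving out any 1 of 13 of the 20 arrays (adjusted p up to 0.065), and within the slide of days 3 and 5 (-0.09, 0.72) and that of days 7 and 10 (-0.20, 0.34). At day 14 the difference was -1.38 without the first lacZ array and -0.24 without the second, and without either MGT array the call was lost (0.051 and 0.057).

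The other 2 probes were higher under MGT. The probe at base 2273 (chr15:85632110-85632169) read -2.12 to -0.88 over the 10 MGT arrays, against -4.46 to -2.37 over the 10 lacZ arrays and -2.54 and -2.41 at day 0. The probe at base 7356 (chr15:85637193-85637252) read -3.10 to -2.34, against -5.72 to -3.35 and -4.29 and -4.23. For both probes no MGT array overlaps a lacZ array. Of the 10 lacZ arrays, 9 were well above background for the probe at 2273 and 7 for that at 7356. The mean differences of the 2 probes, in the limma fit over 38813 probes, were 1.53 ± 0.11 (adjusted p = 7.2e-08) and 1.43 ± 0.07 (1.9e-09). At day 14 the first gave 2.13 ± 0.25 (2.1e-05), no exact size with 1 of 2 lacZ arrays well above background. The second, with 0 of 2, gave at least 3.25-fold as a bound (1.2e-07). Against day 0, day-14 MGT cells were higher by 0.63 ± 0.25 (0.042) and 1.25 ± 0.16 (1.9e-05). The authors' deposited table gave a mean difference of 0.60 for Ppara (adjusted p = 6.5e-09), and its values correlated over the 22 arrays at 0.912 with the probe at base 2273, 0.978 with that at 7356 and -0.093 with the brightest. Which transcripts each probe reads was not tested. The courses most like that of the brightest probe were those of Rapsn, a scaffold of the nerve-muscle synapse (r = 0.993), Clps, pancreatic colipase (0.989), and Ttc16 (0.988).

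**Figure D3:**
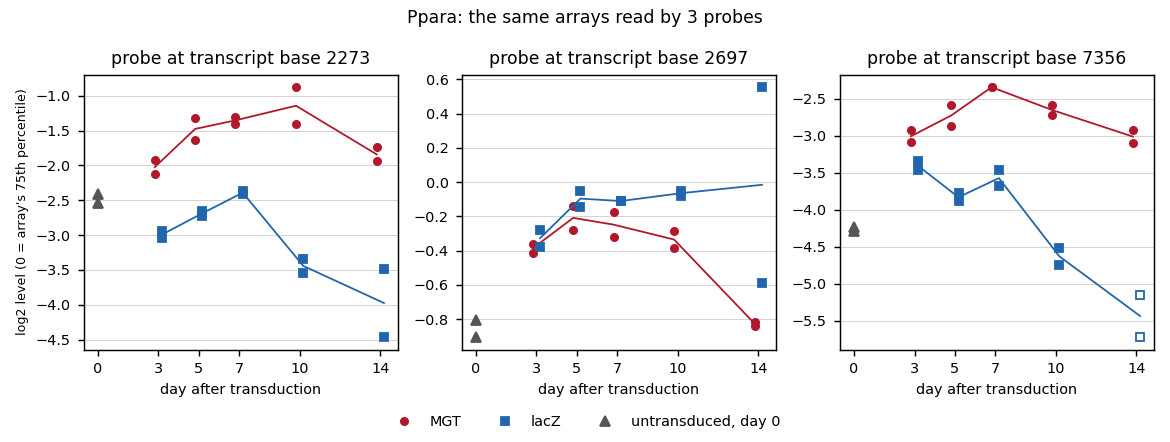
Log2 level (vertical axes; 0 is the array's 75th percentile) from the 3 Ppara probes on the same 22 arrays by day after transduction (horizontal axes), for MGT (red circles), lacZ (blue squares) and untransduced cells (grey triangles); open symbols mark a group with neither array well above background. The probes at transcript bases 2273 and 7356 put all 10 MGT arrays above all lacZ arrays, and the brightest one, at 2697, does not.

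Esrra hardly differed. It read 3.24 to 3.41 over the 10 MGT arrays (median 3.36), against 3.39 to 3.56 over the 10 lacZ arrays (median 3.43) and 3.62 and 3.50 at day 0. The 2 ranges overlap only at their ends. The mean difference was -0.10 ± 0.03 (SE, limma adjusted p = 0.0039), about the median of all genes, -0.09, and it was 0.003 (0.93) after normexp and quantile normalization and -0.01 (0.84) in the authors' deposited table. Day 3 (-0.18 ± 0.06, adjusted p = 0.029) and day 14 (-0.15 ± 0.06, 0.0499) were called, days 5, 7 and 10 (0.00, -0.06 and -0.12) were not, and both calls were lost under other scalings and without single arrays. Against day 0, Esrra differed by -0.28 ± 0.06 in day-14 MGT cells (7.5e-04), a call lost after normexp and quantile normalization (-0.12, 0.10) and in the authors' deposited table (-0.16, 0.066). In day-14 lacZ cells it differed by -0.13 ± 0.06 (0.062), and with those settings by -0.21 (0.0069) and -0.23 (0.0096). Its probe covers chr19:6985503-6985562 on mm9. Snx16 (r = 0.942), Micu3, a regulator of the mitochondrial calcium channel (0.941), and the kinase Plk2 (0.932) had the courses most like it.

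Of 22 partners of these regulators, 7 were higher and 10 lower under MGT in the mean over the days, with a median of -0.02. Of all genes, 23.2% were higher and 40.7% lower in that mean. Esrrg, the related receptor of heart and muscle, rose by 3.79 ± 0.16, with 10 MGT arrays and 2 lacZ arrays above background. Ppargc1b, the sister coactivator, rose by 2.17 ± 0.12, the catalytic AMPK subunit Prkaa2 by 1.94 ± 0.09, and Rxra, the partner receptor of PPARs, by 0.72 ± 0.22 (adjusted p = 0.012). Of 24 textbook targets of PPARalpha, 8 were higher and 12 lower in the same mean, with a median of -0.08. Pdk4, the kinase that shuts glucose carbon out of the mitochondria, rose by 1.68 ± 0.07 (1.04 with MGT and -0.64 with lacZ), and the acyl-CoA synthetase Acsl1 by 1.36 ± 0.06. The thioesterase Acot2 fell by 1.19 ± 0.05. Against day 0, 14 of the 24 targets were higher and 4 lower in day-14 MGT cells, where 33.1% of all genes were higher and 37.4% lower. In day-14 lacZ cells 16 were higher and 5 lower (35.5% and 33.4% of all genes), and the 2 comparisons share the day-0 arrays.

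**Figure D4:**
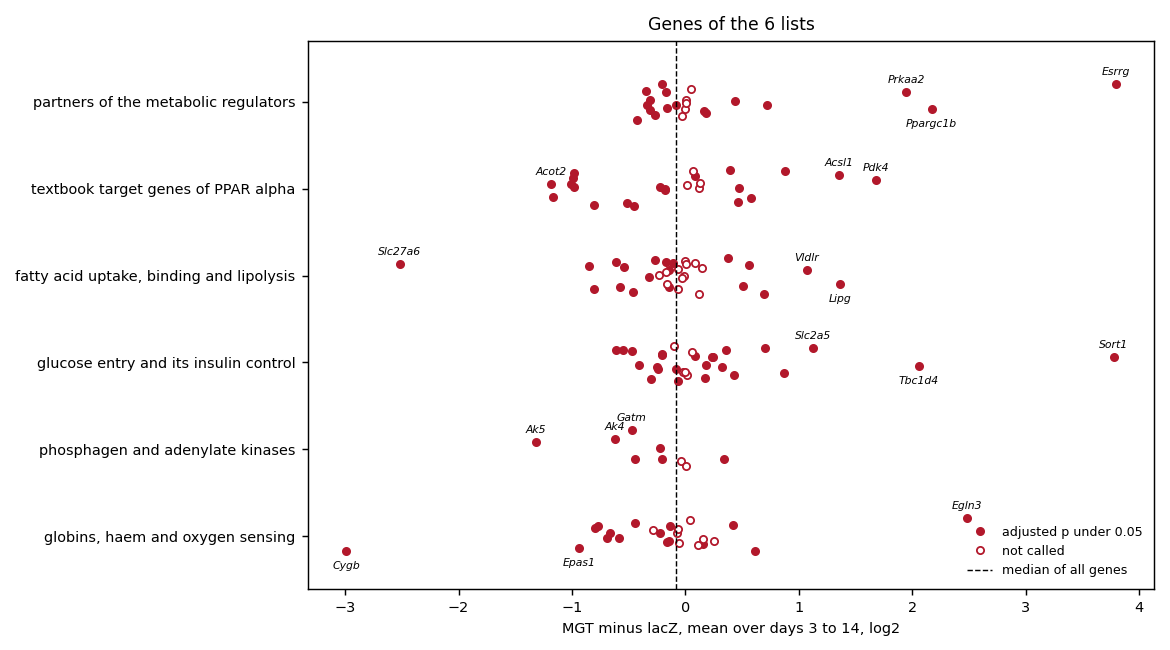
Mean difference MGT minus lacZ over days 3 to 14 (horizontal axis, log2 units) of each measured gene of 6 lists (rows, points spread vertically at random); filled points have an adjusted p under 0.05, the 3 called genes of each list that differ most are labelled, and the dashed line is the median of all genes, -0.09. Each list spreads to both sides of that line, from Cygb at -2.99 to Esrrg at 3.79.

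Set against untransduced cells, Ckb was higher and Cd36 lower with both viruses at day 14, and Mb and Slc2a4 were higher with MGT and lower with lacZ. In day-14 MGT cells 7 of 9 were called, where 70.5% of all genes were: Mb, Ckb, Slc2a4, Ppargc1a and Fabp3 were higher (as were 33.1% of all genes) and Cd36 and Esrra lower (37.4%). In day-14 lacZ cells 8 of 9 were called, where 68.9% of all genes were: Ckb and Ppara were higher (35.5% of all genes) and Mb, Slc2a4, Ppargc1a, Cd36, Lpl and Fabp3 lower (33.4%). The Ppara value (0.84) is that of its brightest probe. It was 0.27 without the second day-14 lacZ array and -0.36 (limma adjusted p = 0.0017) in the authors' deposited table. The probe at base 2273 gave -1.50, with 1 of 2 day-14 lacZ arrays well above background, so this is no exact size. That at 7356 gave -1.17, with 0 of 2 well above background, or at least 1.37-fold lower as a bound. Ppargc1a (-1.12) had neither day-14 lacZ array well above background, allowed no bound, and was -0.06 (0.83) as the mean of its probes, of which the second was above background on no array of either group. Calls of Esrra, Cd36, Lpl and Fabp3 that single arrays or other scalings ended are given above. Both counts are of only 9 genes, and neither was tested against the share of all genes. The lacZ count was 5 with only the arrays compared in the fit, and the 2 comparisons share the day-0 arrays. The day-14 MGT arrays lie on another slide than day 0, and the day-14 lacZ arrays on the same one. In day-3 lacZ cells 6 of 9 were called, where 57.8% of all genes were, with Ckb, Ppargc1a, Slc2a4 and Lpl higher (28.8%) and Mb and Cd36 lower (29.0%). Cd36 (-0.53 ± 0.20, adjusted p = 0.039) lost that call when any 1 of the 4 arrays was left out.

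**Figure D5:**
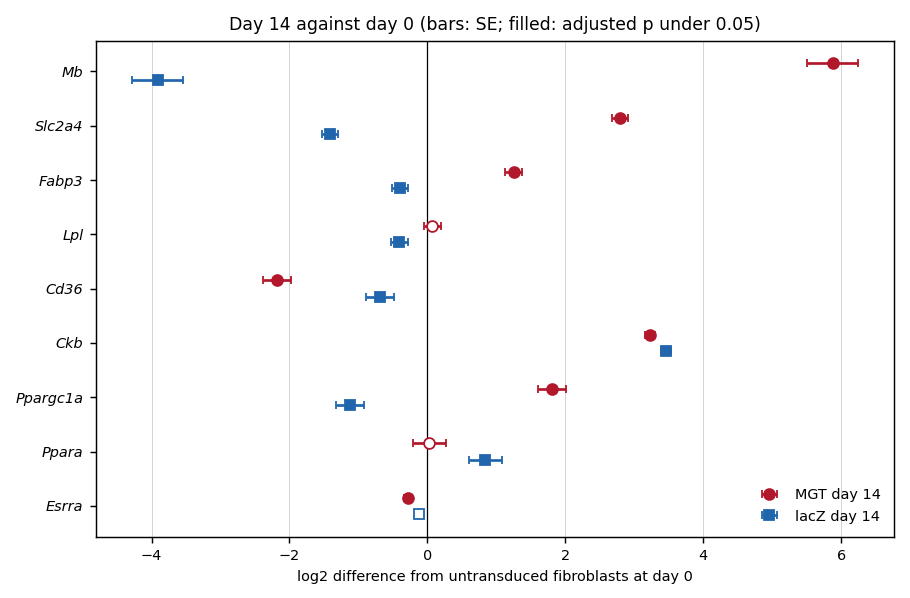
Log2 difference from untransduced cells at day 0 (horizontal axis) of each gene (rows) in day-14 MGT cells (red circles) and day-14 lacZ cells (blue squares); bars are standard errors and filled points have an adjusted p under 0.05. Mb, Slc2a4, Ppargc1a and Fabp3 lie right of 0 with MGT and left of it with lacZ (for Mb and Ppargc1a with neither lacZ array well above background), while Ckb lies right of it with both, at 3.23 and 3.46.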

How the data were processed

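Gene expression was measured on 22 Agilent 1-colour mouse arrays (Cy3). Per the file headers, Feature Extraction 10.7.3.1 made the deposited processed signal, a background-subtracted intensity per spot, on a design placed on mm9. The authors' deposited table gives a normalized intensity per gene name; limma is named in the submitters' processing notes, and its use is not described further.

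From the scanner files, outlier spots were left out, log2 of the deposited processed signal was taken relative to the 75th percentile of each array's 59305 non-control spots, and spots of a probe were averaged. Of 55681 probes, 38813 were kept, those that stood well above background in both replicates of some group; 30186 carried a RefSeq name through accession (26056), symbol (3200) or synonym (930). A gene took its brightest probe. limma 3.58.1 (R 4.3.3) fitted 11 group means to 18062 genes (11 residual degrees of freedom) with Benjamini-Hochberg adjustment, and probes were fitted likewise. The fit was run on data simulated with 200 genes changed by 0.5, 1 or 2 on the log2 scale. In the mean over the days, 9.3%, 5.2% and 9.7% of calls were false, and 78%, 91.5% and 98% of changed genes were recovered. At day 3, 1.2%, 3.9% and 6.25% of calls were false, and 40.5%, 73% and 90% were recovered. Group means were contrasted in 10 comparisons. Alternatives changed the scaling, background, filter, probe choice, deposited table, moderation, replicate block, slide and each array in turn.

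Members and gene lists were chosen with earlier results of these data known. Named were every member and probe, its 3 most alike genes (well above background on at least 8 arrays), up to 4 called genes per list with the largest mean difference, and Mef2c; a few genes that this rule names are not reported here. The number of arrays limits the precision. Probe specificity was not tested. The half-site search was added later.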

Additional observations from a re-analysis of the deposited data

Results flagged for a closer look

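For 6 of the 9 genes the difference MGT minus lacZ changed between day 3 and day 14, by limma's test of that change, in which 27.6% of all genes were called. The change was 6.82 for Mb, 4.02 for Ppargc1a, 2.12 for Slc2a4 and 0.77 for Lpl on the log2 scale, each higher at day 14, and -1.38 for Cd36 and -0.81 for Ckb. For Mb and Ppargc1a neither day-14 lacZ array was well above background, so these are no exact sizes. The largest adjusted p among them was 0.0060, for Lpl, which was 0.067 with only the arrays compared in the fit. The arrays of days 3 and 14 lie on different slides, so the day cannot be told apart from the slide, and the second day-14 lacZ array has the weakest raw signal of all. The other Ckb probe gave a change of -0.29 (adjusted p = 0.21).

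For 4 genes both arrays of MGT lay on one side of both lacZ arrays on 1 day and on the other side on another day. Lpl differed by -0.87 at day 7 and by 0.48 at day 14. Cd36 differed by 0.80 at day 5 and by -1.49 at day 14. Ppargc1a differed by -1.10 at day 3 and by 2.999 at day 10, with neither day-10 lacZ array well above background. Ckb differed by 1.41 at day 7 and by -0.23 at day 14 on its brightest probe, while its other probe gave 0.20 at day 14. The differences between those pairs of days were not tested.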

How the results depend on the processing

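Of the 90 results formed by 9 genes and 10 comparisons, 70 were called, and 49 of these kept direction and call under every alternative scaling, filter, probe average, table or moderation and with each array left out in turn, while 21 did not. Mb was called higher under MGT in the mean over the days at every such setting and within single slides, as were Slc2a4 and Fabp3. The ranges were 5.26 to 9.42 for Mb, 2.74 to 3.47 for Slc2a4 and 1.56 to 1.97 for Fabp3. Their low ends are means within the slide of days 3 and 5. Their high ends are means within the other slide that both viruses shared. These ends differ in the days averaged, not in the processing. With each array left out in turn, the ranges were 7.68 to 7.98, 3.29 to 3.36 and 1.70 to 1.78. With only the arrays of a comparison in the fit, all genes called numbered 3286 at day 10, 2699 at day 14 and 3294 for the change between days 3 and 14 (7105, 8591 and 4978 with all arrays), and members called numbered 5 at day 14 and 5 for day-14 lacZ against day 0; fewer residual degrees of freedom remain there. The cause of the other changes was not tested.

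Ppara reversed most. In the order mean, days 3, 5, 7, 10 and 14, and change between days 3 and 14, its difference was 0.60, 0.26, 0.46, 0.51, 0.90, 0.88 and 0.62 in the deposited table, 0.89, 0.44, 0.73, 0.71, 1.33, 1.25 and 0.81 as the mean of its probes, 1.53, 0.97, 1.21, 1.04, 2.30, 2.13 and 1.16 from the probe at base 2273, and 1.43, 0.40, 1.10, 1.23, 1.98, 2.42 and 2.02 from that at 7356. Day-14 lacZ minus day 0 was then -0.36, -0.61, -1.50 and -1.17, and day-3 lacZ minus day 0 was -0.52 from the probe at 2273. On day 14, 1 of 2 lacZ arrays was well above background for the probe at 2273 and 0 of 2 for that at 7356. On day 10, 1 of 2 was for that at 7356. Values that rest on these groups are no exact sizes. Ppara at day 3 was 0.0056 with the percentile over probes above background on every array, and day-14 MGT minus day 0 was -0.0062 under quantile normalization. Cd36 was 0.35 within the slide of days 3 and 5. Ckb at day 14 was 0.0695 in the deposited table and 0.20 from its other probe. The dim Ppargc1a probe, above background on 1 day-14 MGT array and on no other array behind these values, which are thus background readings, gave -0.56, -0.059 and -0.0017 on days 5, 10 and 14 and 0.99 for day-14 lacZ against day 0.

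The remaining reversals were differences near 0. Under normexp with quantile normalization, Esrra was 0.0032 in the mean, 0.046 at day 7, 0.094 at day 14 and 0.12 for day-3 lacZ against day 0, Lpl was 0.099 at day 10 and Fabp3 was 0.086 for day-3 lacZ against day 0. With the percentile over probes above background on every array, Esrra was 0.014 at day 7 and 0.038 for day-3 lacZ, Lpl 0.053 at day 10 and Fabp3 0.039 for day-3 lacZ. Under quantile normalization these 4 were 0.025, 0.056, 0.075 and 0.041. In the deposited table Esrra was -0.0041, 0.044 and 0.077 on days 5, 7 and 14 and 0.14 for day-3 lacZ, and Lpl 0.041 at day 10. Lpl day-14 MGT minus day 0 was -0.011 as the mean of probes and -0.094 from its other probe. With 1 array left out, Esrra at day 5 ranged over -0.0197 to 0.02, Lpl at day 10 over -0.13 to 0.0895, the change between days 3 and 14 over -0.096 to 0.33 for Fabp3 and -0.015 to 0.083 for Esrra, day-14 MGT minus day 0 over -0.024 to 0.077 for Ppara, and day-3 lacZ minus day 0 over -0.067 to 0.0496 for Esrra and -0.0155 to 0.0001 for Fabp3.

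Over 55 pairs of groups, the deviations of same-numbered arrays correlated at -0.09 to 0.16 (median -0.0029), with 3 pairs over 0.1. Pairs of the same day were not looked at apart, so a pairing of samples within a day was not tested. With the replicate number as a block, 8 members were called at day 14 in place of 9, and the other counts of members were as without it. Slide as a random block gave no value, since the slides are already told apart by the group means. Signal limits Mb and Ppargc1a, whose lacZ arrays were well above background in 3 and 5 of 10 cases.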

Other observations

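Markers of heart muscle were higher under MGT. The 9 cardiomyocyte markers summed to 343 to 883 on the MGT arrays, against 13.4 to 60.0 on the lacZ arrays and 19.2 to 21.6 at day 0 (linear scale, 1 being the array's 75th percentile), and their median difference over days 3 to 14 was 6.63 on the log2 scale. Genes usually taken as markers of skeletal muscle moved the same way, with 7 of 9 measured higher under MGT, among them the fast troponin Tnnt3 (5.34 ± 0.06, SE), the perinatal myosin Myh8 (5.12 ± 0.08) and desmin (Des, 4.81 ± 0.03), which heart muscle makes as well. Myod1, a master regulator of skeletal muscle, differed by -0.02 ± 0.13 (limma adjusted p = 0.91), and Myog was well above background on 4 of 10 MGT arrays and on no lacZ array. Among the neural and glial markers, Sox10 was higher under MGT, and S100b (-1.33 ± 0.06) and Tubb3 (-2.34 ± 0.08) were lower.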
